A study of Mus musculus with 6 samples.

Results

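The kappa light chain variable segments (Igkv genes) were examined in RNA-seq libraries of germinal center B cells, which divide, mutate their antibody genes and are selected during an immune response. Members were the rows of the deposited gene table whose gene name begins with Igkv: 119 of 19680 genes, 99 of them annotated as variable genes and 20 as pseudogenes. The cKO group was Senp1flox/flox Cγ1-Cre and the WT group was Senp1flox/flox without Cre, with 3 libraries each. Senp1 encodes a protease that removes SUMO from proteins, and the floxed allele is deleted where Cre is made, here from the Cγ1 locus, which is active in B cells that have met antigen. All animals were C57BL/6 mice aged 6 to 8 weeks that received 100 µg of NP-CGG into the peritoneum, and B220+ CD38- FAS+ cells were sorted from spleen on day 14. WT mice carried no Cre, so Cre itself and loss of Senp1 cannot be told apart. Separate mice per library are not stated in the labels, and the p-values therefore speak only of the spread among these 6 libraries, which may be technical.

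A kappa chain is built by joining an Igkv segment to an Igkj segment upstream of the single constant gene Igkc, and a B cell passes its joined segment to all its daughters. The reads on each segment therefore report which variable segments the sorted cells carried, weighted by how much light chain RNA each cell held. Reads from many cells and reads from a few cells rich in RNA, as plasma cells are, cannot be told apart in bulk samples. In C57BL/6 mice the response to the hapten NP is known for its use of lambda light chains, so the kappa repertoire here is the other arm of the light chain pool.

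The 3′ ends of the variable exons that led a library are shown first, because that stretch enters the third complementarity-determining region. Each line holds the last 60 bases of the variable exon on the coding strand, in GENCODE M21 transcripts of GRCm38, and the capitals run from the codon of the conserved second cysteine to the end of the segment. The positions were Igkv6-15 (chr6:70406469-70406528, minus strand), Igkv10-96 (chr6:68631963-68632022, minus strand), Igkv17-127 (chr6:67861600-67861659, plus strand) and Igkv1-117 (chr6:68121768-68121827, plus strand).
Igkv6-15: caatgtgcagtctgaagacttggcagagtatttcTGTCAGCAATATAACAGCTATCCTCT
Igkv10-96: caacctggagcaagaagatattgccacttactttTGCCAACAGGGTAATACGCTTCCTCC
Igkv17-127: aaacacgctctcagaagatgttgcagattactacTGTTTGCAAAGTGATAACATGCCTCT
Igkv1-117: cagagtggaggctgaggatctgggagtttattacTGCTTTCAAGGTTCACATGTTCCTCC

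The next 6 segments are shown in the same way because their shares of Igkv reads did not overlap between cKO and WT libraries. The positions were Igkv5-39 (chr6:69900424-69900483, minus strand), Igkv14-111 (chr6:68256810-68256869, plus strand), Igkv6-17 (chr6:70371934-70371993, plus strand), Igkv3-12 (chr6:70518790-70518849, plus strand), Igkv6-23 (chr6:70260409-70260468, minus strand) and Igkv10-94 (chr6:68704508-68704567, minus strand).
Igkv5-39: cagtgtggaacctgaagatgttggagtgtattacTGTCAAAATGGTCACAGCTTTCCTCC
Igkv14-111: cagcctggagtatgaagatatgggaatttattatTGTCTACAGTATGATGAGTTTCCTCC
Igkv6-17: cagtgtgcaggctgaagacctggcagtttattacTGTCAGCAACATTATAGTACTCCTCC
Igkv3-12: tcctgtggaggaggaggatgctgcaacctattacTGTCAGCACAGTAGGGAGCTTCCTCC
Igkv6-23: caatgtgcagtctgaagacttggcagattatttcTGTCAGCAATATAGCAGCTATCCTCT
Igkv10-94: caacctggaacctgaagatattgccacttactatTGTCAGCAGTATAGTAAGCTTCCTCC

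Igkv1-135 and Igkv1-133 are shown as the last 253 bases of their variable exons, because they are nearest neighbours in sequence and their reads had to be told apart. The capitals mark the 11 positions at which the exons differ. Igkv1-135 lay at chr6:67610256-67610508 and Igkv1-133 at chr6:67725409-67725661, both on the plus strand of GRCm38.
Igkv1-135: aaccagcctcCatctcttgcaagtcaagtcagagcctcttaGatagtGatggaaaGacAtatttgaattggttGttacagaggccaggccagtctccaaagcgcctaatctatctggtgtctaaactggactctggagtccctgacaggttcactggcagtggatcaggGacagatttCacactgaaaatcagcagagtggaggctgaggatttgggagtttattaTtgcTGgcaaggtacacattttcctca
Igkv1-133: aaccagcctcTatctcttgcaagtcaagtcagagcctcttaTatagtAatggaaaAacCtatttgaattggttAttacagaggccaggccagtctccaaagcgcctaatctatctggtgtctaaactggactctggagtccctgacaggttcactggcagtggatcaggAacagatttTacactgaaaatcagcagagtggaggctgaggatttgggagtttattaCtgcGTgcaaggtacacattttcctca

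The 119 segments spanned chr6:67555497-70704177 in GRCm38, with Igkj1 beginning at 70722562. Of these, 47 lay on the plus strand and 72 on the minus strand, and they belonged to 20 sequence families, given by the first number in the name. The annotation holds 160 Igkv genes in all, 100 of them variable genes and 60 pseudogenes.

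Values were the authors' normalized counts, from which whole reads were recovered. The libraries held 3019152 to 9657005 gene reads in cKO and 5160902 to 10339054 in WT. Senp1 had 373, 425 and 398 normalized counts in cKO replicates 1 to 3 and 915, 868 and 891 in WT replicates 1 to 3, lower in every cKO library. Its log2 fold change was -1.16 ± 0.12 (SE). The limma test used below did not call even this gene (unadjusted p = 7.56e-06, adjusted p = 0.111). Over all genes the first principal component placed replicate 1 of both groups on 1 side, at -49.1 in cKO and -54.4 in WT, against -10.1 to 56.2 in the other libraries. Defining germinal center genes summed to 6292 to 9578 normalized counts in cKO and 9567 to 10837 in WT, with Mef2b at 0 in at least 1 library.

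Igkv segments together took 21718, 12493 and 5810 reads in cKO replicates 1 to 3 and 30256, 9892 and 22313 in WT replicates 1 to 3. As a share of gene reads these were 0.225%, 0.414% and 0.188% in cKO and 0.293%, 0.192% and 0.342% in WT. The groups overlapped, with means of 0.276% ± 0.121 in cKO and 0.275% ± 0.0765 in WT (SD, n = 3 each). The constant gene Igkc, which every kappa transcript carries, followed the same order of libraries at the top: it had 22680, 44761 and 28149 normalized counts in cKO and 28343, 22889 and 33527 in WT. It did not pass the test (log2 fold change 0.13 ± 0.29 SE, limma adjusted p = 0.973). The ratio of Igkv to Igkc normalized counts was 0.519, 0.530 and 0.422 in cKO and 0.540, 0.460 and 0.569 in WT, and the groups overlapped.

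Markers of plasma cells, which hold far more immunoglobulin RNA than other B cells, were read beside the Igkv total. The 11 of 11 listed plasma cell markers found in the table summed to 11187, 19498 and 10172 normalized counts in cKO and 13040, 11546 and 16118 in WT, and none was at 0 in a library. The sum was highest in cKO replicate 2 and next highest in WT replicate 3, the libraries with the highest and next highest Igkv shares of gene reads. That order of the sum was set by Jchain, which links secreted antibodies into polymers. Jchain had 5765, 13478 and 5836 normalized counts in cKO and 7012, 6937 and 10944 in WT. The other 10 markers summed to 5421, 6020 and 4336 in cKO and 6028, 4609 and 5174 in WT, with WT replicate 1 highest and cKO replicate 2 next. Among them Irf4 was also highest in cKO replicate 2 (1287) and next highest in WT replicate 3 (1032). Sdc1, Tnfrsf17 and Fkbp11 were highest in cKO replicate 2 too. Xbp1, Mzb1, Slamf7 and Derl3 were highest in WT replicate 1, and Prdm1 and Ell2 in WT replicate 3. The part of plasma cells in the values below was not tested. Summed markers of naive or memory B cells ranged from 3986 to 9380 in cKO and from 2365 to 5076 in WT. T cell markers ranged from 513 to 1583 in cKO and from 604 to 697 in WT, with Cd3d, Cd3g and Cd8a at 0 in cKO replicate 3 alone. Lck by itself gave 470 to 691 of these counts in each library. Macrophage markers ranged from 292 to 448 in cKO and from 108 to 296 in WT. The highest naive or memory B, T cell and macrophage sums were all in cKO replicate 2, the library with the highest Igkv share of gene reads.

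The lambda light chains were the smaller pool in every library. Lambda variable genes (Iglv1, Iglv2 and Iglv3) made up 13.8%, 11.4% and 10.3% of variable-segment normalized counts in cKO and 18.2%, 12.7% and 9.24% in WT. For the constant genes (Iglc1, Iglc2 and Iglc3 against Igkc) the lambda part was 13.8%, 10.3% and 9.54% in cKO and 16.7%, 11.7% and 9.68% in WT. The groups overlapped on both measures. None of Iglv1 to Iglv3, Iglc1 to Iglc3 and Igkj1 to Igkj5 passed the limma test at an adjusted p of 0.05.

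Usage was spread over many segments, and no library was dominated by a single one. Igkv6-15 led 3 libraries: it held 10.4% of Igkv reads in cKO replicate 1 (95% Wilson interval 9.97% to 10.8%), 6.56% in WT replicate 1 and 5.50% in WT replicate 2. Igkv10-96 led cKO replicate 2 with 7.05% (6.62% to 7.51%), Igkv17-127 led cKO replicate 3 with 6.33% (5.74% to 6.99%), and Igkv1-117 led WT replicate 3 with 8.08% (7.73% to 8.44%). The intervals cover counting error only, and reads without molecular identifiers are not independent molecules. The leading share averaged 7.92% ± 2.15 in cKO and 6.71% ± 1.29 in WT (SD, n = 3 each).

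The evenness of usage was measured beside it. The effective number of segments, the inverse Simpson index of the shares, was 31.0, 31.4 and 36.9 in cKO and 37.5, 33.7 and 35.3 in WT. Its means were 33.1 ± 3.27 in cKO and 35.5 ± 1.95 in WT (SD, n = 3 each), and the groups overlapped. Without the leading segment of each library it was 37.4, 32.2 and 37.9 in cKO and 39.1, 33.5 and 38.7 in WT. The top 5 segments held 29.2%, 28.4% and 24.8% of Igkv reads in cKO and 25.5%, 26.7% and 27.4% in WT, and reaching 50% of Igkv reads took 12, 11 and 14 segments in cKO and 13, 12 and 14 in WT.

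**Figure D1:**
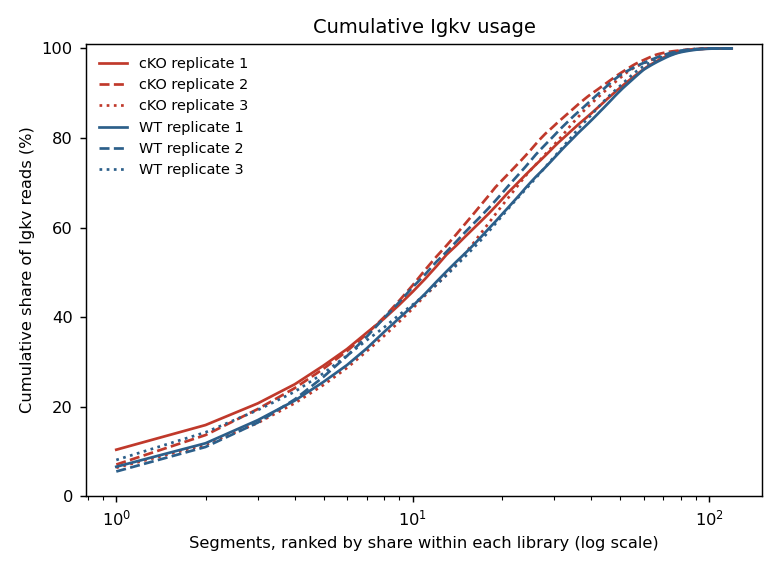
Cumulative share of Igkv reads (percent, y axis) against segments ranked by share within each library (x axis, log scale); each line is a library, cKO in red and WT in blue, with solid, dashed and dotted lines for replicates 1, 2 and 3. The curves start at 5.50% to 10.4% and run close together, passing 50% at 11 to 14 segments.

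The number of segments seen largely followed the number of Igkv reads. At least 10 reads fell on 87, 72 and 65 segments in cKO and on 92, 73 and 84 in WT, and at least 1 read on 107, 103 and 95 in cKO and on 111, 100 and 106 in WT. When every library was reduced to the 5810 Igkv reads of the shallowest, the expected number of segments with a read was 98.02, 96.17 and 95 in cKO and 100.2, 96.3 and 96.3 in WT. Of the 119 segments, 89 had reads in all 6 libraries, 53 had at least 10 reads in all 6 and 20 reached 10 reads in none. A count of 0 allowed a share of up to 0.0138%, 0.0240% and 0.0516% of Igkv reads in cKO and 0.00992%, 0.0303% and 0.0134% in WT. Pseudogenes, which cannot encode a chain, took 0.502%, 0.376% and 0.516% of Igkv reads in cKO and 0.397%, 1.20% and 0.641% in WT.

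The most used segments were shared by the libraries, in changing order. Igkv6-15 had the largest mean share, at 10.4%, 4.31% and 3.17% in cKO and 6.56%, 5.50% and 6.18% in WT. Its WT libraries lay close together while cKO replicate 1 stood above and cKO replicates 2 and 3 below all of them. Igkv1-117 had 2.95%, 5.80% and 4.87% in cKO and 3.74%, 5.20% and 8.08% in WT, and the groups overlapped. Igkv10-96 had 2.77%, 7.05% and 5.13% in cKO and 5.17%, 2.22% and 3.95% in WT, low in cKO replicate 1 and high in cKO replicate 2. Igkv5-43 had 4.83%, 1.93% and 3.80% in cKO and 3.64%, 2.81% and 3.45% in WT, and Igkv3-2 had 1.98%, 2.11% and 1.65% in cKO and 1.01%, 5.44% and 1.25% in WT. Both overlapped, with WT replicate 2 alone setting the upper end of Igkv3-2. The log2 fold changes of these 5 were -0.18 ± 0.43, -0.27 ± 0.53, 0.42 ± 0.62, 0.04 ± 0.28 and 0.04 ± 0.49 (SE), with limma adjusted p from 0.960 to 0.994, and each changed sign when some library was left out.

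**Figure D2:**
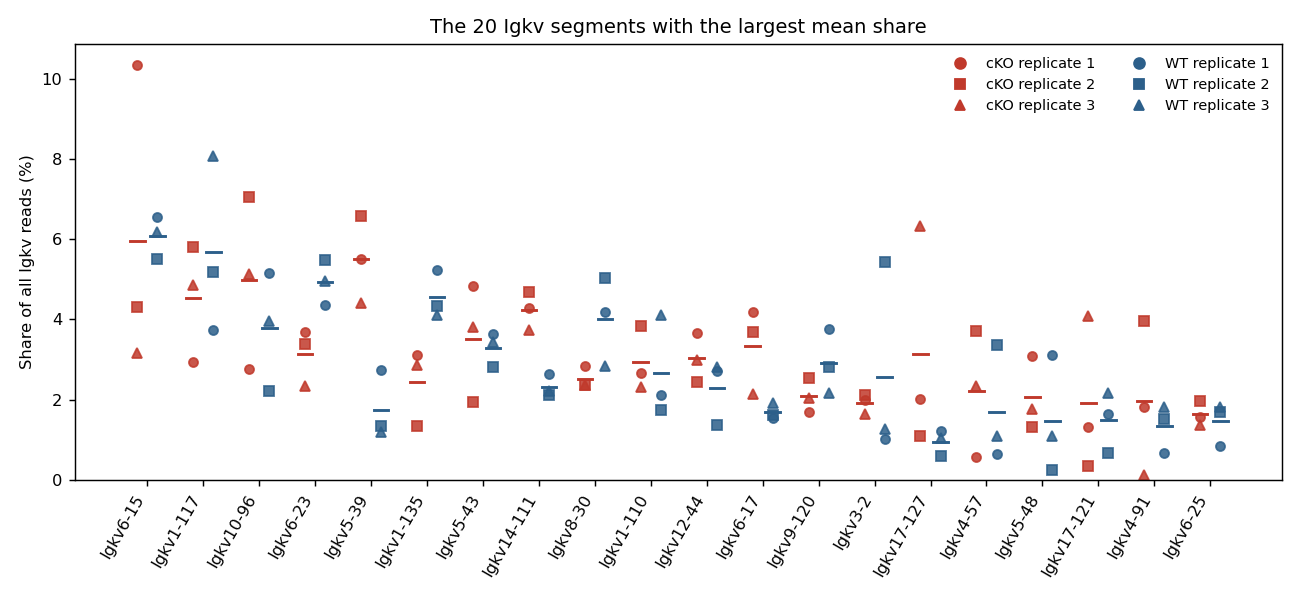
Share of all Igkv reads (percent, y axis) of the 20 segments with the largest mean share (x axis); points are libraries, cKO in red left of WT in blue, with circles, squares and triangles for replicates 1, 2 and 3 and bars for group means. Igkv5-39 and Igkv14-111 lie higher in all 3 cKO libraries and Igkv6-23 and Igkv1-135 lower, while Igkv6-15 in cKO runs from 3.17% to 10.4%.

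Other segments among the 20 most used, named for their place in that plot, overlapped between the groups. Igkv1-110 had 2.66%, 3.84% and 2.31% in cKO and 2.12%, 1.75% and 4.12% in WT. Igkv12-44 had 3.67%, 2.44% and 2.98% in cKO and 2.70%, 1.37% and 2.82% in WT. Igkv9-120 had 1.69%, 2.53% and 2.05% in cKO and 3.75%, 2.82% and 2.16% in WT. WT replicate 2 was the lowest library for Igkv1-110 and Igkv12-44, and WT replicate 1 the highest for Igkv9-120. Igkv4-91 and Igkv5-48 spread further, with Igkv4-91 at 1.81%, 3.95% and 0.120% in cKO and 0.668%, 1.51% and 1.82% in WT. The low value in cKO replicate 3 was 7 reads. Igkv5-48 had 3.09%, 1.31% and 1.76% in cKO and 3.10%, 0.233% and 1.09% in WT, nearly equal in replicate 1 of both groups and low in WT replicate 2 with 23 reads. Igkv4-57 had 0.576%, 3.72% and 2.34% in cKO and 0.648%, 3.37% and 1.08% in WT, lowest in replicate 1 and highest in replicate 2 of both groups, while over the 108 tested segments the deviations of same-numbered libraries correlated at -0.0489, -0.0127 and -0.117.

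Across the whole table no Igkv segment passed the test. Of the 119 members, 108 reached a mean of at least 1 normalized count and were tested with limma on log2(normalized count + 1), and 11 fell below it. At a Benjamini-Hochberg adjusted p of 0.05, limma called 0 of the 108 higher and 0 lower in cKO, where the background over 14678 genes was 0% in either direction. At an unadjusted p under 0.05 there were 9 members higher (8.33%, background 2.98%) and 14 lower (13%, background 2.17%) with limma. On the recovered reads edgeR called 0 of 83 segments in either direction, with 8 higher (9.64%, background 3.43%) and 8 lower (9.64%, background 2.23%) at that level. DESeq2 called 0 higher and 2 lower, beside 16 and 7 over all genes, and of 118 segments 9 were higher (7.63%, background 1.77%) and 16 lower (13.6%, background 1.07%) at an unadjusted p under 0.05. The members' median log2 fold change was -0.16, with 48 of 108 above 0, beside -0.0019 over all genes tested. Its sign depended on single libraries: it was -0.41 without WT replicate 2 (33 of 106 above 0), 0.04 without WT replicate 3 (55 of 107) and 0.02 without cKO replicate 1 (55 of 106).

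The spread between replicates of Igkv segments was larger than that of other genes at the same level. At means of 100 to 2000 normalized counts the median residual SD within a genotype was 0.926 log2 units for 49 segments and 0.215 for 6558 other genes, and all 49 lay above the other genes' median. At 10 to 100 it was 1.24 for 36 segments and 0.413 for 3654 other genes, again with all 36 above. At 1 to 10 it was 1.11 for 23 segments and 0.915 for 3935 other genes, with 17 above. The limma test draws each gene's variance toward that of genes at its level. The SEs, intervals and p-values of single segments, and the counts at an unadjusted p, depend on this step. With the own variance of each gene, chosen after seeing the data, 2 members were higher (1.85%, background 3.34%) and 5 lower (4.63%, background 2.9%).

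**Figure D3:**
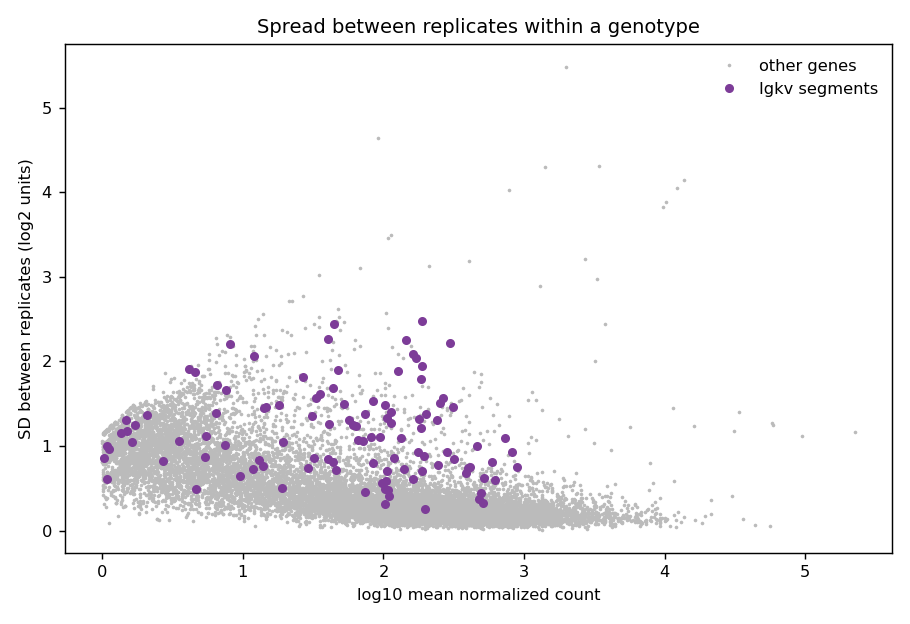
Residual SD between replicates within a genotype (log2 units, y axis) against mean normalized count (log10, x axis) for each tested gene; purple points are the 108 Igkv segments and grey points the other genes. All 36 segments with means of 10 to 100 and all 49 with means of 100 to 2000 lie above the median of other genes in their range.

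For normalized counts, groups that did not overlap were about as common among the tested segments as in the whole table. In normalized counts, 6 of the 108 tested segments (5.56%, background 6.28%) were higher in all cKO libraries than in any WT library and 8 (7.41%, background 5.28%) were lower. As shares of Igkv reads, 6 of 119 (5.04%) were higher without overlap and 12 (10.1%) lower. Such shares exist for the segments only, so these counts have no background over all genes. With 3 libraries against 3, the exact two-sided permutation p for such a separation is 0.1, the smallest the design allows.

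Igkv5-39 had the smallest p among segments higher in cKO. It held 5.51%, 6.59% and 4.42% of Igkv reads in cKO and 2.73%, 1.33% and 1.19% in WT. Every cKO library lay above every WT library, with means of 5.51% ± 1.08 in cKO and 1.75% ± 0.850 in WT (SD, n = 3 each), a ratio of 3.14. In normalized counts it had 649, 1562 and 525 in cKO and 418, 141 and 227 in WT, a log2 fold change of 1.77 ± 0.47 (SE, 95% interval 0.70 to 2.83), which did not pass (limma unadjusted p = 0.00468, adjusted p = 0.915). The SE and interval rest on the variance drawn toward other genes. With the own variance of each gene, Igkv5-39 was not among the 2 members higher at an unadjusted p under 0.05. The share of Igkv5-39 differed by 2.78 points between the replicate 1 libraries and by 4.24 points between means of replicates 2 and 3. The replicate numbers were not taken as pairs. All of its 50-base stretches were unique among annotated Igkv segments, and its nearest segment, Igkv5-45, was 91.6% identical.

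Igkv14-111 and Igkv6-17, named here after their values were seen, also had higher shares in every cKO library. Igkv14-111 had 4.28%, 4.69% and 3.73% in cKO and 2.64%, 2.11% and 2.22% in WT, with little spread inside each group. Its log2 fold change was 0.90 ± 0.37 (SE; limma unadjusted p = 0.0383, adjusted p = 0.915), and all its 50-base stretches were unique. Igkv6-17 had 4.18%, 3.69% and 2.15% in cKO and 1.53%, 1.62% and 1.91% in WT, where cKO replicate 3 lay just above WT replicate 3. In normalized counts Igkv6-17 overlapped between the groups (limma adjusted p = 0.915), and 62.5% of its 50-base stretches were unique.

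The other segments with the smallest p among those higher in cKO were less used. Igkv17-127 had 2.003%, 1.08% and 6.33% in cKO and 1.21%, 0.596% and 1.05% in WT. Its shares overlapped, and its fitted log2 fold change of 1.42 ± 0.54 (SE, limma adjusted p = 0.915) was 0.89 without cKO replicate 3. Igkv4-74 had 0.741%, 0.720% and 1.51% in cKO and 0.486%, 0.687% and 0.403% in WT, without overlap but with cKO replicate 2 close to WT replicate 2. Igkv11-125 had 0.608%, 0.0400% and 0.671% in cKO and 0.102%, 0.0404% and 0.0224% in WT, and Igkv4-80 had 0.368%, 0.208% and 0.654% in cKO and 0.0595%, 0.162% and 0.238% in WT. Both overlapped, and the low value of Igkv11-125 in cKO replicate 2 rested on 5 reads.

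Igkv1-135, at the end of the locus far from the joining genes, had the smallest p among segments lower in cKO. It held 3.10%, 1.34% and 2.87% of Igkv reads in cKO and 5.25%, 4.35% and 4.12% in WT. The groups did not overlap, with means of 2.44% ± 0.956 in cKO and 4.57% ± 0.596 in WT (SD, n = 3 each). In normalized counts it had 365, 319 and 341 in cKO and 802, 458 and 785 in WT, a log2 fold change of -0.95 ± 0.22 (SE, 95% interval -1.45 to -0.45), which did not pass (limma unadjusted p = 0.00211, adjusted p = 0.915). With the segment's own variance the SE was 0.27 (t test unadjusted p = 0.0245, adjusted p = 0.790). The share differed by -2.14 points between the replicate 1 libraries and by -2.12 points between means of replicates 2 and 3, not taken as pairs.

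Of 92 segments with an adjusted p in the authors' deposited table, 2 were lower in cKO at 0.05 (2.17%, background 0.06%) and 0 were higher (background 0.137%). The 2 were Igkv1-135, with a log2 fold change of -0.995 and an adjusted p of 0.0349 in the authors' deposited table, and Igkv3-12, with -1.68 and 0.0493 in the authors' deposited table. DESeq2 on the recovered reads gave the same fold changes and nearly the same adjusted p-values for both. It repeats the authors' result and is not a separate one. Igkv3-12 had 0.599%, 0.216% and 0.207% of Igkv reads in cKO and 0.648%, 2.27% and 0.780% in WT. The groups did not overlap, though the replicate 1 libraries, not taken as a pair, differed by only -0.0492 points. The limma log2 fold change was -1.75 ± 0.43 (SE, unadjusted p = 0.00331, adjusted p = 0.915). With the segment's own variance the SE was 0.57 (t test unadjusted p = 0.0379, adjusted p = 0.790).

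Close relatives of these segments were read beside them, because reads that fall on identical stretches can be assigned to either. Igkv1-133, the relative of Igkv1-135 printed above at 96.5% identity, had 0.470%, 2.20% and 0.327% in cKO and 0.185%, 0.0809% and 0.547% in WT, with cKO replicate 2 far above the rest. Igkv1-135 and Igkv1-133 together had 3.57%, 3.55% and 3.20% in cKO and 5.43%, 4.43% and 4.67% in WT. The sum stayed lower in every cKO library, and its spread in cKO was 0.207 points against 0.956 for Igkv1-135 alone. The means of the sum were 3.44% in cKO and 4.84% in WT, a difference of -1.40 points, smaller in size than for Igkv1-135 alone. Igkv3-12 with its nearest relative Igkv3-7 (96.8% identical) had 1.09%, 0.648% and 1.05% in cKO and 1.72%, 3.13% and 2.50% in WT, also without overlap. Igkv3-7 alone was lower in every cKO library, at 0.488%, 0.432% and 0.843% in cKO and 1.07%, 0.859% and 1.72% in WT. That sum therefore could not overlap and is no check on read assignment.

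Igkv5-39 with Igkv5-45, Igkv14-111 with Igkv14-126 and Igkv6-23 with Igkv6-13 also kept groups that did not overlap. Igkv5-45 held at most 0.801% in any library, too little for its sum with Igkv5-39 to overlap. For other segments the sum did not separate. Igkv6-17 with Igkv6-25, 95.6% identical, had 5.74%, 5.66% and 3.51% in cKO and 2.38%, 3.32% and 3.73% in WT, and Igkv4-74 with Igkv4-73, 94.2% identical, had 0.856%, 0.744% and 1.70% in cKO and 0.559%, 0.890% and 0.453% in WT. Both sums overlapped. Igkv4-55 had 0.792%, 0.272% and 0.482% in cKO and 0.717%, 1.42% and 0.762% in WT, overlapping in share while its normalized counts did not overlap (log2 fold change -0.92 ± 0.25 SE, limma adjusted p = 0.915). With Igkv4-68, its nearest relative at 95.4% identity, it had 1.20%, 1.49% and 1.53% in cKO and 1.33%, 1.61% and 1.29% in WT, a difference in means of 0.00116 points. Igkv4-78 rested on 3, 2 and 1 reads in cKO and 42, 20 and 9 in WT, and 32.4% of its 50-base stretches were unique. Its share was lower in every cKO library, while the sum with Igkv4-79 overlapped. Igkv4-80 with Igkv4-57 overlapped too.

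Igkv10-94 and Igkv6-23 were lower in every cKO library as well. Igkv10-94 had 0.419%, 0.536% and 1.05% in cKO and 1.48%, 1.67% and 2.18% in WT, a log2 fold change of -1.46 ± 0.42 (SE, limma adjusted p = 0.915). Its sum with Igkv10-95 (97.0% identical) was also lower without overlap, at 0.530%, 0.648% and 1.10% in cKO and 1.54%, 1.73% and 2.27% in WT. Igkv10-95 held at most 0.112% in any library, too little for that sum to overlap. Igkv6-23 had 3.69%, 3.39% and 2.34% in cKO and 4.37%, 5.48% and 4.96% in WT, while its normalized counts overlapped (log2 fold change -0.64 ± 0.35 SE, limma adjusted p = 0.916). The remaining segments with lower shares and no overlap were Igkv3-7, Igkv8-27, Igkv2-109, Igkv6-14, Igkv4-70, Igkv18-36 and Igkv4-75, chosen after their values were seen, with mean shares in WT from 0.0565% to 1.22%.

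Reads could be told apart between most segments. Of the 119 members, 72 had every 100-base stretch of their transcript unique among annotated Igkv genes, and 3 had under 50% unique. For stretches of 50 bases the median segment was 79.0% unique and 17 segments were under 50%. The nearest relative was 94.4% identical at the median, 53 segments had a relative over 95%, and the closest pair was Igkv5-43 and Igkv5-45 at 99.0%. The read length and the handling of reads with several alignments were not stated in the labels, and somatic mutation in germinal centers adds mismatches to these transcripts, so the value of each close pair is uncertain.

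A set of segments was high in 1 library. Of 55 segments that reached 1% of Igkv reads in some library, 10 had there at least 5 times the median share of the other libraries. In cKO replicate 3 these were Igkv17-127, Igkv2-112 and Igkv1-88, in cKO replicate 2 Igkv3-10 and Igkv1-133, and in cKO replicate 1 Igkv14-126. In WT replicate 2 they were Igkv8-19, Igkv5-37 and Igkv4-69, and in WT replicate 1 Igkv6-14. Igkv2-112 had 1.01%, 0.0800% and 3.41% in cKO and 1.89%, 0.131% and 0.112% in WT, high in 3 libraries of both groups and at most 0.131% in the others. Igkv14-126 had 1.61%, 0.0240% and 0.0861% in cKO and 0.228%, 0.0101% and 0.139% in WT, with 350 reads in cKO replicate 1 and 3 and 5 in the other cKO libraries. Igkv4-69 had 7, 5 and 0 reads in cKO and 65, 102 and 8 in WT, or 0.0322%, 0.0400% and 0% in cKO and 0.215%, 1.03% and 0.0359% in WT.

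Segments of a family share sequence and often lie in runs along the locus. Igkv6 was the most used family with 9 members, at 22.0%, 14.9% and 12.1% in cKO and 18.3%, 16.9% and 17.4% in WT. Igkv4, the largest with 33 members, took 11.7%, 15.5% and 15.1% in cKO and 11.3%, 16.6% and 13.1% in WT. Igkv1 took 10.1%, 13.9% and 11.7% in cKO and 12.2%, 12.4% and 18.3% in WT. These 3 families overlapped between the groups, and so did Igkv5, which held 15.4%, 10.9% and 10.5% in cKO and 10.7%, 9.12% and 6.93% in WT. Igkv3 also overlapped, at 4.75%, 7.23% and 4.58% in cKO and 6.94%, 10.01% and 6.59% in WT.

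Among the 6 most used families only Igkv8 did not overlap. It held 6.92%, 6.41% and 8.38% in cKO and 9.87%, 12.4% and 9.20% in WT, with means of 7.24% ± 1.02 in cKO and 10.5% ± 1.71 in WT (SD, n = 3 each). This rested on 10 members, led by Igkv8-30 with 2.84%, 2.35% and 2.38% in cKO and 4.18%, 5.04% and 2.83% in WT. Igkv12, named after its values were seen, was higher without overlap, at 7.10%, 7.76% and 6.33% in cKO and 5.75%, 4.12% and 6.28% in WT, where cKO replicate 3 and WT replicate 3 nearly met.

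**Figure D4:**
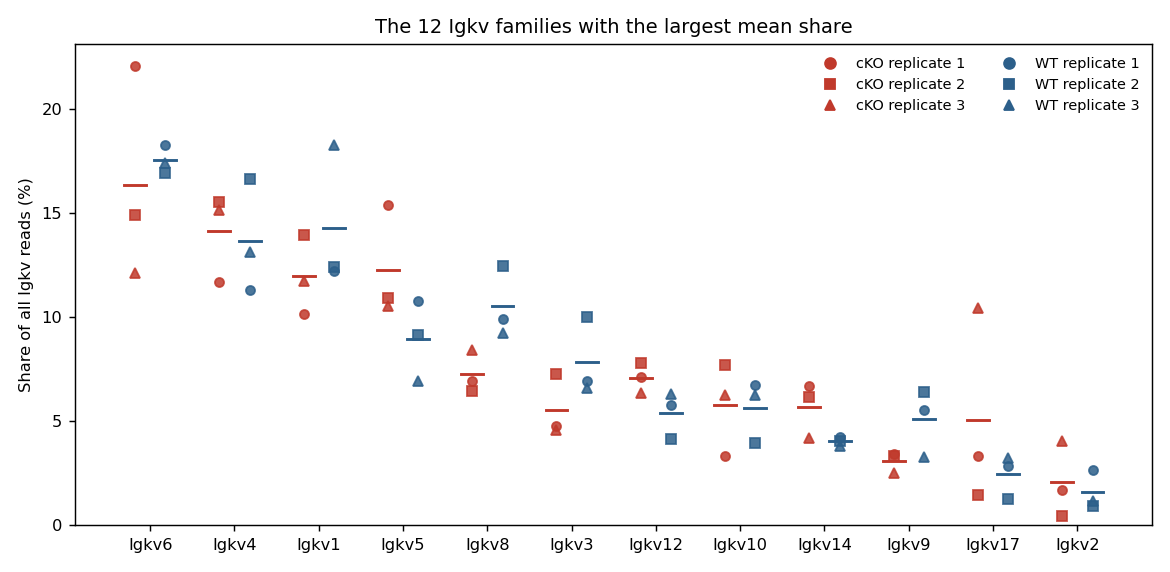
Share of all Igkv reads (percent, y axis) of the 12 families with the largest mean share (x axis); points are libraries, cKO in red left of WT in blue, with circles, squares and triangles for replicates 1, 2 and 3 and bars for group means. Igkv8 is lower and Igkv12 higher in all 3 cKO libraries, and Igkv17 reaches 10.4% in cKO replicate 3 alone.

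Usage followed position along the locus in the same broad pattern in all 6 libraries. The 39 segments with the lowest numbers (up to 44), next to the joining genes, held 50.4%, 44.7% and 37.6% of Igkv reads in cKO and 45.4%, 49.9% and 43.1% in WT. The 40 segments in the middle (numbers 45 to 90), 31 of which are Igkv4 members, held 15.8%, 15.5% and 21.3% in cKO and 16.9%, 19.2% and 15.9% in WT. The 40 with the highest numbers (from 91) held 33.8%, 39.8% and 41.0% in cKO and 37.7%, 30.9% and 41.1% in WT. The groups overlapped in each stretch. Split into 59 segments near the joining genes and 60 far from them, the near segments held 61.2%, 54.3% and 47.5% in cKO and 57.2%, 60.9% and 52.1% in WT.

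Both transcriptional orientations were used in every library. A segment in the orientation of the joining genes is joined by deletion of the DNA between them, and 1 in the opposite orientation by inversion. Plus-strand segments held 37.7%, 41.3% and 42.7% of Igkv reads in cKO and 37.9%, 35.8% and 43.0% in WT, and the groups overlapped.

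**Figure D5:**
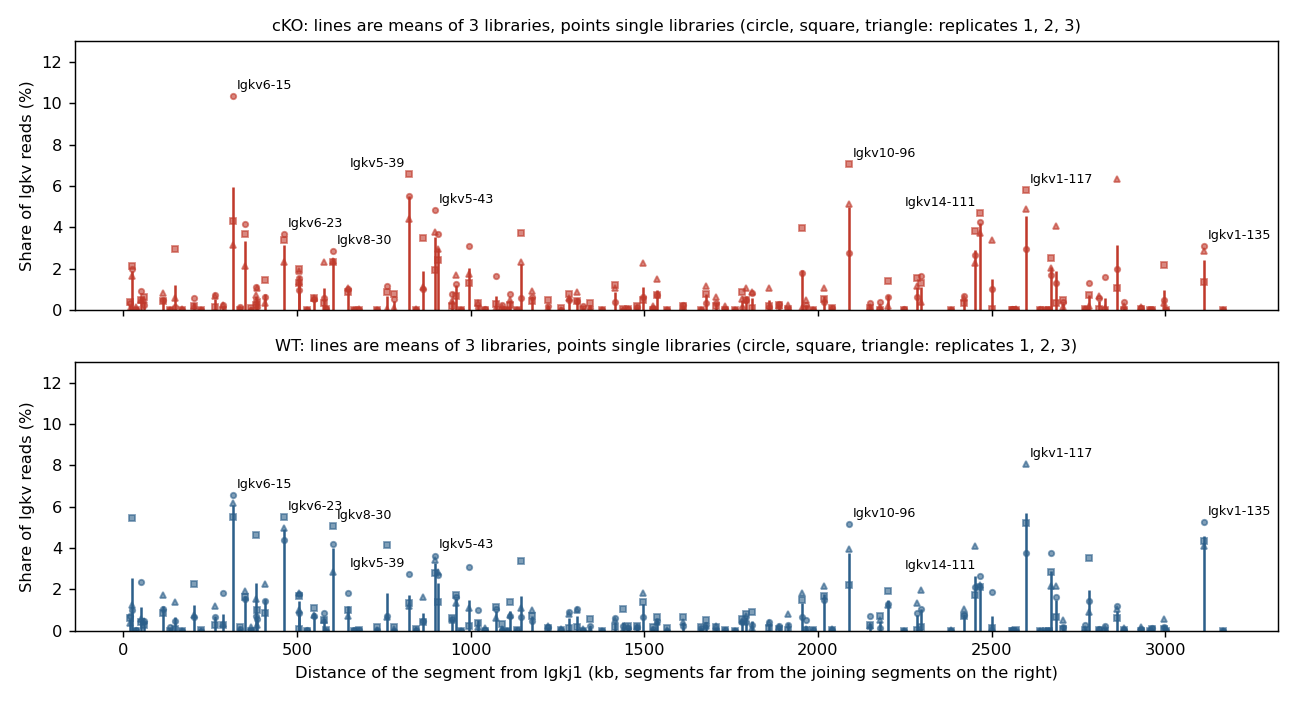
Share of Igkv reads (percent, y axis) of each of the 119 segments against its distance from Igkj1 (kb, x axis), with cKO in the upper and WT in the lower panel; lines are means of 3 libraries, and circles, squares and triangles are replicates 1, 2 and 3. The most used segments lie near the joining genes and toward the far end, with low shares in the Igkv4-rich stretch between them.

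Pairs of libraries shared most of their usage, within and between genotypes. The overlap of usage, the sum over segments of the smaller of a pair's shares, was 66.7% to 69.3% within cKO, 67.9% to 76.8% within WT and 58.9% to 74.0% between the groups. The Spearman correlation across the 119 segments ran from 0.813 to 0.838 within cKO, from 0.820 to 0.893 within WT and from 0.730 to 0.899 between the groups. These are descriptions over segments, which are not replicates and share libraries, depth and germline locus. Ranking segments by share per kilobase of exonic length, which ran from 302 to 501 bases, gave nearly the same order (Spearman 0.9995).

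Genes known to act on the kappa locus were read from a list of 23, of which 22 were in the table. None passed the limma test, 2 of 22 were lower at an unadjusted p under 0.05 (9.09%, background 2.17%) and 0 were higher (background 2.98%). Groups did not overlap for 3 of 22, all lower in cKO (13.6%, background 5.28%), and the median log2 fold change of the list was -0.10 beside -0.0019 over all genes. Pou2f1, which binds the octamer of light chain promoters, had 382, 359 and 300 normalized counts in cKO and 506, 517 and 411 in WT, without overlap (log2 fold change -0.46 ± 0.16 SE, limma unadjusted p = 0.0179, adjusted p = 0.915). Ikzf1, which encodes the lymphoid factor Ikaros, had 4240, 3785 and 3229 in cKO and 4633, 5126 and 4679 in WT, also without overlap (log2 fold change -0.37 ± 0.15 SE, limma unadjusted p = 0.0345, adjusted p = 0.915). Pou2f2, a B cell octamer factor, had 1395, 1860 and 2118 in cKO and 1287, 1396 and 1410 in WT, overlapping through cKO replicate 1. Ikzf3, an Ikaros relative, had 3737, 3731 and 2715 in cKO and 4247, 4257 and 4264 in WT, without overlap (limma unadjusted p = 0.0597). The recombination gene Rag1, which joins the segments in developing B cells, had 2, 0 and 2 reads in cKO and 1, 0 and 6 in WT.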

How the data were processed

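RNA was sequenced from sorted germinal center B cells in 3 cKO and 3 WT libraries. Per the submitters' processing notes, TopHat2, HISAT2, HISAT, SAMtools, HTSeq and DESeq2 were used with mm10; the labels give no versions, annotation, strand setting or treatment of reads with several alignments. The authors deposited DESeq2-type normalized counts (a signal, each read count divided by a size factor) with their log2 fold changes, standard errors, test scores and p-values, per the file headers. All values in each library (100%) were whole multiples of a single read within a tolerance of 0.01 read, so whole reads were recovered. Shares, families, diversity and intervals were computed from those reads without a floor (Python 3.11.15, SciPy 1.17.1). The upper limit for a count of 0 was taken as 3 reads.

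Genes with a mean of at least 1 normalized count were tested as log2(value + 1) with limma 3.58.1 (R 4.3.3, variance trend) on all 6 libraries with genotype alone, and p-values were adjusted by Benjamini-Hochberg over 14678 genes at 0.05. On the log2(value + 1) scale the change of low genes is understated. edgeR 4.0.16 (quasi-likelihood) and DESeq2 1.42.0 on recovered reads were alternatives, and the fit was checked on simulated data. The labels call the mice paired without saying what a replicate number marks. The numbers were therefore not taken as pairing the libraries. Same-numbered deviations over all genes correlated at 0.493, 0.0545 and 0.201, and differently numbered ones at -0.398 to 0.170. These values cannot decide whether the numbers mark pairs. Named segments were the 3 most used in each library, the 5 most used on average, and the 5 smallest p-values in each direction; named families were the 6 most used. The members and lists were chosen with earlier results of these data known. Per-segment sequences and positions came from GENCODE M21 on GRCm38, in which gene IDs and types of all 119 members matched.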

Additional observations from a re-analysis of the deposited data

How the results depend on the processing

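Limma called 0 Igkv segments in either direction under the pseudocounts, filters, quantile scaling, library totals, replicate block, term for replicate 1 and every library left out. With libraries rescaled to equal Igkv totals it called 1 higher (Igkv12-38, adjusted p = 0.0274) and 1 lower (Igkv4-69, 0.00387), beside 11 and 5 over 14820 genes. With the replicate block added, chosen after seeing the data, it called 1 lower (Igkv4-69, 0.0217), beside 5 higher and 2 lower over all genes. DESeq2 called 2 lower (Igkv1-135 and Igkv3-12), the same 2 as in the authors' deposited table, and edgeR 0. Counts in brackets here are over all genes tested. At an unadjusted p under 0.05 the 9 higher (438) became 5 (167) with equal totals and block. They became 2 (490) with the own variance of each gene. With a library left out they ranged from 3 (192, without WT replicate 2) to 10 (375, without WT replicate 3). The 14 lower (318) became 9 (269 of 10720) at means of at least 10. By edgeR they became 8 (241 of 10786), or 22 (350 of 19680) without a filter. They became 5 (426) with the own variance. With a library left out they ranged from 8 (219, without cKO replicate 3) to 20 (386, without cKO replicate 2). The labels call the mice paired but tie no number to a pair, and same-numbered deviations correlated over 0.1 for replicates 1 and 3 but not 2. Those of cKO replicate 2 and WT replicate 3 correlated at 0.170. The replicate block alone gave 8 higher and 20 lower at an unadjusted p under 0.05, beside 701 and 632 over 14678 genes. Igkv5-43 reversed with library totals (-0.0398), edgeR (-0.0195, unfiltered -0.0441) and DESeq2 (-0.0286). Igkv3-2 reversed with library totals (-0.0437), equal totals (-0.0020, also with the block), edgeR (-0.0421, unfiltered -0.0627) and DESeq2 (-0.0555). With a library left out, log2 fold changes ranged from -0.51 to 0.34 for Igkv6-15, -0.30 to 0.27 for Igkv5-43, -0.22 to 0.96 for Igkv10-96, -0.81 to 0.22 for Igkv1-117 and -0.38 to 0.56 for Igkv3-2. The causes were not tested. The log2 fold changes of the other 11 segments named by the rule kept their direction in every alternative run that tested them. Igkv4-78 was tested in 19 of 21 runs, counting the main run. The widest 95% interval of a share reached 0.627 points to each side.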
